A study of Mus musculus with 24 samples.

Results

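Trace amine-associated receptors (TAARs) are a second, small family of odour receptors in the olfactory epithelium (OE), beside the large family of olfactory receptors (ORs, *Olfr* symbols). The members described here are the 10 genes *Taar2*, *Taar3*, *Taar4*, *Taar5*, *Taar6*, *Taar7a*, *Taar7b*, *Taar7d*, *Taar8b* and *Taar9*, chosen by their symbols among 45706 genes. They are 10 of the 16 *Taar* symbols of that table, which also holds 1175 OR symbols. Bulk RNAseq, which pools the RNA of all cells of the tissue, was made from the dissected main OE of 12 *WT* and 12 *iRhom2-/-* mice. The *iRhom2-/-* mice carry the Rhbdf2 tm1b (KOMP) allele, in which LacZ is read from the promoter of *iRhom2* (gene symbol *Rhbdf2*), on a mixed 129Sv and C57BL/6 background. The allele acts in the whole animal, so the neurons and the other cells of the OE lack intact *iRhom2* alike. All mice were untreated. At 8 weeks there were 3 *WT* mice (2 male, 1 female) and 3 *iRhom2-/-* males, and at 10 weeks 3 mice of each genotype (2 male, 1 female). Another 6 *WT* and 6 *iRhom2-/-* libraries came from males of 5 or 30 weeks, with 3 mice per age and genotype. For these 12 libraries the columns of the table show the genotype but not which mouse or age, so they were treated as 1 set whose spread includes the difference between both ages. The labels give each of the 3 sets a core reference number of its own, so age and this number cannot be told apart.

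Like ORs, TAARs are G-protein coupled receptors that reach the cilia of olfactory sensory neurons (OSNs) and signal through a cAMP cascade that opens a cyclic nucleotide-gated channel. Each TAAR neuron chooses a single *Taar* gene, and most of these neurons lie in the dorsal part of the OE. The family is known for the detection of volatile amines, which come from spoiled food, urine and the scents of predators. *Taar1*, the member that is not an odour receptor, lies in the same gene cluster.

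All 16 *Taar* genes of the table lie side by side on mouse chromosome 10 (GRCm38, GENCODE M21), in a cluster of 189179 bp at chr10:23920356-24109534. Of the 10 members, 6 are on the plus strand and 4 on the minus strand. In GENCODE M21 the transcripts of these 10 genes hold coding sequence only and no UTR. The paper does not name the gene annotation behind the counts, and 45143 genes of the table were found in M21. If the authors' models were alike, counts reflect reads that overlap the coding exons, and levels per kb below rest on this. *Taar2* has 2 exons and the 9 other members have a single one.

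The *Taar7* genes are near copies of each other, which bears on every value given for them below. The coding sequences of *Taar7a*, *Taar7b*, *Taar7d*, *Taar7e* and *Taar7f* have the same length (1077 bases), and pairs of them were 91.7 to 95.4% identical. Not all 5 genes carry the same base at 140 of the 1077 positions, and at 32 of these *Taar7a* alone differs from the 4 others. The first 100 coding bases are shown because 21 of these 32 positions fall there, so that a read from this end can be assigned to *Taar7a*. Capitals mark the positions at which the 5 genes differ. The sequences run 5′ to 3′ along the gene, from GENCODE M21 transcripts, with *Taar7a* at chr10:23993382-23993481 (minus strand), *Taar7b* at chr10:23999939-24000038, *Taar7d* at chr10:24027222-24027321, *Taar7e* at chr10:24037614-24037713 and *Taar7f* at chr10:24049510-24049609 (plus strand).
Taar7a: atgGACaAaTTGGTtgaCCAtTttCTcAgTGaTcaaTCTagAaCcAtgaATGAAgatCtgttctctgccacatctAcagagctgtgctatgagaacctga
Taar7b: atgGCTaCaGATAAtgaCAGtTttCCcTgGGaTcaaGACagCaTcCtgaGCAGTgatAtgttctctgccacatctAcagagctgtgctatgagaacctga
Taar7d: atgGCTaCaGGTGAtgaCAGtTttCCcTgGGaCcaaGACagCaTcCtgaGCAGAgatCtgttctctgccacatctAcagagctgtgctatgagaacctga
Taar7e: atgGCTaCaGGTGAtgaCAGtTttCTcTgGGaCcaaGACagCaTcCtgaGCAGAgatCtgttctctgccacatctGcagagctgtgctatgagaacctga
Taar7f: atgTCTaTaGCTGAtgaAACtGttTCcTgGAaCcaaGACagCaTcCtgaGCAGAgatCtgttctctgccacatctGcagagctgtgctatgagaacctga
In these 100 bases *Taar7a* differed from *Taar7b* at 25 positions, from *Taar7d* and *Taar7e* at 23 and from *Taar7f* at 29.

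Reads came in pairs, and the shares here are for a single read. A coding stretch of 150 bases, the read length, occurred in an annotated transcript of another gene for 3.56% of the positions in *Taar7a* and in *Taar7b*. The share was 2.91% in *Taar7d* and 4.18% in *Taar8b*. It reached 19.9% in *Taar7e*, 21.1% in *Taar7f*, 26.3% in *Taar8a* and 30.5% in *Taar8c*. For *Taar2*, *Taar3*, *Taar4*, *Taar5*, *Taar6* and *Taar9* it was 0. The authors' RSEM estimates divide reads that fit several genes, so the *Taar7* and *Taar8* values are less certain than those of the 6 other members.

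Library totals ranged from 25333822 to 48660394 counts, with a median of 34233812. The targeted gene *Rhbdf2* followed the labels. It stood at 21.8 ± 1.56 CPM (counts per 1000000 counts, SD, n = 12) in *WT* and at 10.4 ± 2.07 CPM (n = 12) in *iRhom2-/-*, without overlap in any set, and its log2 fold change over all libraries was -1.08 (edgeR quasi-likelihood test, adjusted p = 9.84e-08). All marker lists of OE cells were detected in every library, including mature OSN markers, which summed to 9134 to 17219 CPM. A pair of libraries stood apart. In *iRhom2-/-* mouse 2 of 10 weeks a single gene, *Bpifb9b*, took 13.6% of all counts. *WT* mouse 1 of 8 weeks had the lowest mature OSN markers of all 24 libraries (9134 CPM), close to the next lowest (9527 CPM). Its lymphoid markers were the highest of all 24 libraries, at 42.0 CPM, against 10.9 and 12.4 CPM in the other *WT* mice of that age.

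In *WT* OE the TAARs were expressed at low levels and fell into a higher and a lower group. Divided by transcript length, *Taar6* was highest at 2.30 ± 0.556 CPM per kb (SD, n = 12). *Taar9*, a receptor for cyclic and other tertiary amines, followed at 1.83 ± 0.663 CPM per kb. *Taar7a* stood at 1.76 ± 0.460 and *Taar7d* at 1.75 ± 0.576 CPM per kb. These are members of a subfamily that detects tertiary amines. *Taar2* was at 1.62 ± 0.623, *Taar4*, the phenylethylamine receptor, at 1.57 ± 0.668 and *Taar7b* at 1.32 ± 0.450 CPM per kb. The lower group held *Taar8b* at 0.585 ± 0.225 CPM per kb, *Taar3*, an isoamylamine receptor, at 0.479 ± 0.257 and *Taar5*, the trimethylamine receptor, at 0.416 ± 0.217. Of the 9 steps in this order, only the step from *Taar7b* to *Taar8b* (0.736 ± 0.413 CPM per kb) exceeded the SD of the difference within libraries, and it had the same sign in 12 of 12 libraries. The other neighbours did not differ beyond their spread.

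**Figure D1:**
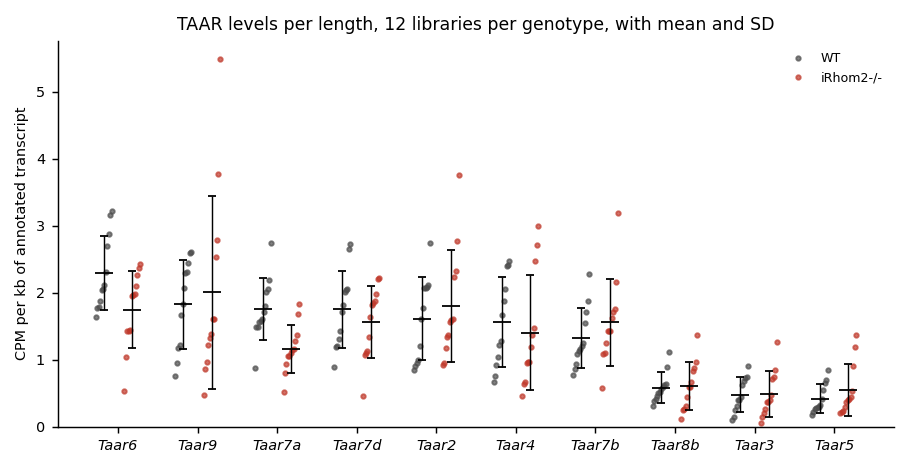
Level of each TAAR gene in CPM per kb of annotated transcript (vertical axis), ordered by the *WT* mean. Grey points are the 12 *WT* libraries and red points the 12 *iRhom2-/-* libraries, with the mean and SD in black. The 7 genes on the left have *WT* means of 1.32 to 2.30 and the 3 on the right of 0.416 to 0.585. A single *iRhom2-/-* library reaches 5.49 for *Taar9*.

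In *iRhom2-/-* OE the same 3 genes had the lowest means, with *Taar8b* at 0.608 ± 0.358, *Taar5* at 0.550 ± 0.393 and *Taar3* at 0.489 ± 0.346 CPM per kb (n = 12). *Taar9* had the highest mean, 2.00 ± 1.44 CPM per kb, and the widest range, from 0.475 to 5.49. *Taar7a* stood at 1.16 ± 0.356 CPM per kb and was the lowest of the 7 genes of the higher group. Each member was detected in all 24 libraries, with 2 to 274 counts. Counting error alone is therefore large for *Taar3*, *Taar5* and *Taar8b*, which had as few as 2, 5 and 6 counts in a library.

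At 10 weeks, each of the 10 members had a lower mean in *iRhom2-/-* than in *WT* OE. All 10 log2 fold changes were negative, with a median of -0.69, whereas 48.6% of the 18764 genes tested at this age had a negative value and their median was 0.0068. Most ORs were negative too, namely 80 of the 91 class I ORs (*Olfr543* to *Olfr691*) and 544 of the 747 other ORs tested. The direction was therefore not particular to the TAARs. In bulk tissue, fewer cells of a type and less RNA per cell cannot be told apart. None of the 10 members reached an adjusted p below 0.05 in edgeR's quasi-likelihood test, a threshold that 25 genes (0.133%) passed. At an unadjusted p below 0.05, 3 members were lower and 0 higher, where 3.82% of all genes tested were lower and 3.97% higher. At this threshold 17 class I ORs were lower and 1 higher, and 94 other ORs were lower and 47 higher. DESeq2 and edgeR's likelihood ratio test called 0 members at the adjusted threshold as well.

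*Taar7a* differed most at 10 weeks. Its levels were 1.94, 2.96 and 1.84 CPM in *WT* mice 1 to 3 (60, 93 and 62 counts) and 0.565, 0.859 and 1.18 CPM in *iRhom2-/-* mice 1 to 3 (19, 23 and 38 counts). All 3 *iRhom2-/-* mice were below all 3 *WT* mice, with a log2 fold change of -1.37 (SE 0.37, 95% confidence interval -2.23 to -0.51, adjusted p = 0.436, edgeR).

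*Taar9* and *Taar4* also had no overlap between the genotypes at this age. *Taar9* stood at 1.74, 2.16 and 2.41 CPM in *WT* and at 1.28, 1.01 and 0.497 CPM in *iRhom2-/-* mice 1 to 3, and *iRhom2-/-* mouse 3 was lowest. Its log2 fold change was -1.18 (SE 0.39, 95% confidence interval -2.07 to -0.29, adjusted p = 0.528, edgeR). *Taar4* stood at 1.74, 2.51 and 2.59 CPM in *WT* and at 1.43, 1.53 and 0.995 CPM in *iRhom2-/-*, with a log2 fold change of -0.79 (SE 0.31, adjusted p = 0.582, edgeR). Groups without overlap and lower in *iRhom2-/-* made up 3 of 10 members, against 6.57% of all genes tested at 10 weeks, and 0 members were higher without overlap, against 6.77%.

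The genotypes overlapped for the 7 other members at 10 weeks. *Taar6* was at 2.13, 3.34 and 1.70 CPM in *WT* and at 2.35, 0.561 and 1.09 CPM in *iRhom2-/-* mice 1 to 3, so that *iRhom2-/-* mouse 1 was above 2 of the 3 *WT* mice. The log2 fold change was -0.83 for *Taar6*, -0.81 for *Taar7d*, -0.59 for *Taar5* and -0.56 for *Taar2*, and nearer to 0 for *Taar8b* (-0.37), *Taar7b* (-0.26) and *Taar3* (-0.25). The last 3 were not stable in sign. Without *WT* mouse 3 they were at 0.02, 0.04 and 0.13. Without *iRhom2-/-* mouse 2, the library with the abundant *Bpifb9b*, all 10 members were still lower and their median was -0.85.

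**Figure D2:**
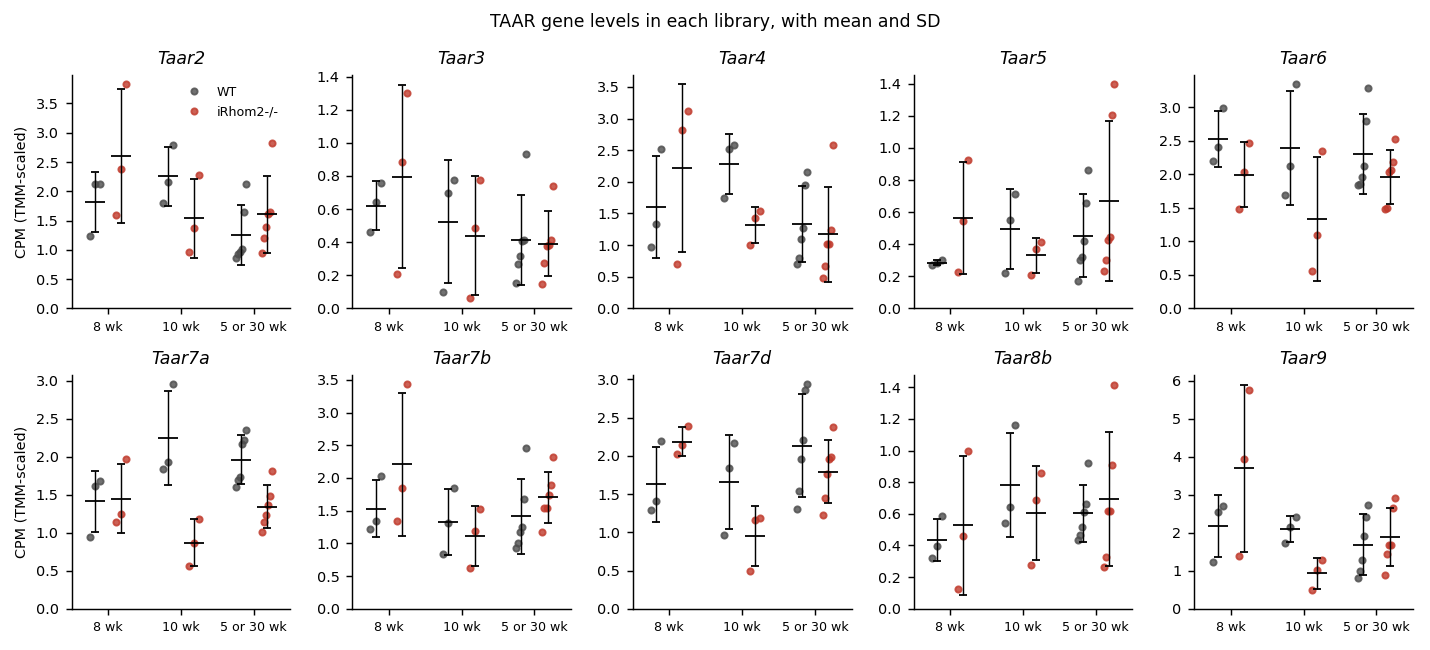
TMM-scaled CPM (vertical axis, from 0) of each of the 10 TAAR genes in every library, by set (horizontal axis). Grey points are *WT* and red points *iRhom2-/-* libraries (3 and 3 at 8 weeks, 3 and 3 at 10 weeks, 6 and 6 at 5 or 30 weeks), with the mean and SD in black. At 10 weeks the red points lie below all grey points for *Taar4*, *Taar7a* and *Taar9*, and at 8 weeks the groups overlap for all 10 genes.

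At 8 weeks the means lay the other way for most members. Of the 10 log2 fold changes 9 were positive, with a median of 0.44, where 50.2% of the 19335 genes tested were negative and their median was -0.0013. Most ORs were positive as well, 88 of the 98 class I ORs and 579 of the 814 other ORs tested. No member was called at an adjusted p below 0.05 (edgeR quasi-likelihood test; 270 genes or 1.40% were), and 0 members had an unadjusted p below 0.05, where 10.8% of the genes tested were higher and 9.02% lower. DESeq2 and the likelihood ratio test called 0 too. The groups overlapped for every member, where all *iRhom2-/-* mice were below all *WT* mice for 11.8% of the genes tested and above them for 14.6%. *Taar5* had the largest difference, with 0.286, 0.299 and 0.268 CPM in *WT* and 0.228, 0.923 and 0.543 CPM in *iRhom2-/-* mice 1 to 3 (log2 fold change 0.98, SE 0.57, 95% confidence interval -0.35 to 2.31, edgeR).

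The *iRhom2-/-* mice of 8 weeks were unlike each other. *Taar9* stood at 1.39, 5.75 and 3.96 CPM in *iRhom2-/-* mice 1 to 3 (67, 274 and 175 counts) and at 1.23, 2.72 and 2.56 CPM in *WT* mice (56, 118 and 105 counts). *Taar4* was at 0.704, 3.13 and 2.83 CPM in *iRhom2-/-* and at 0.969, 1.33 and 2.51 CPM in *WT*, and *Taar2* at 1.59, 3.84 and 2.37 against 1.23, 2.12 and 2.12 CPM. For these 3 receptors *iRhom2-/-* mice 2 and 3 were above all *WT* mice and mouse 1 was not. The same held for *Taar5*, given above, and for *Taar3*, at 0.207, 1.30 and 0.882 against 0.462, 0.644 and 0.756 CPM. It did not hold for the other members. *Taar6* alone among the members had a negative log2 fold change (-0.34, SE 0.27, edgeR), with 2.40, 2.99 and 2.19 CPM in *WT* and 1.49, 2.04 and 2.46 CPM in *iRhom2-/-* mice. *Taar7a* had a log2 fold change of 0.04 (SE 0.36), and without *WT* mouse 1 it was at -0.19.

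In the libraries of 5 or 30 weeks the members were evenly divided, 5 with positive and 5 with negative log2 fold changes, and the median was 0.03 (all 18481 genes tested, -0.0015, with 50.3% negative). No member was called at an adjusted p below 0.05 by edgeR's quasi-likelihood test, where 51 genes (0.276%) were, nor by DESeq2 or the likelihood ratio test. *Taar7a* alone had an unadjusted p below 0.05 and was lower, as were 6.80% of the genes tested, with 7.35% higher. It had a lowest, median and highest value of 1.60, 1.96 and 2.36 CPM in *WT* and of 1.01, 1.31 and 1.82 CPM in *iRhom2-/-*. All 6 *iRhom2-/-* libraries were below the *WT* mean, but the ranges overlapped, as they did for all 10 members. Of all genes tested, 0.644% were lower and 1.11% higher in *iRhom2-/-* without overlap. The log2 fold change was -0.55 (SE 0.19, 95% confidence interval -0.96 to -0.14, adjusted p = 0.236, edgeR). *Taar5* again had the largest positive value (0.53, SE 0.51), with 0.171, 0.370 and 0.861 CPM as lowest, median and highest in *WT* and 0.235, 0.436 and 1.40 CPM in *iRhom2-/-*. Lymphoid markers in these libraries summed to 13.4 to 20.5 CPM in *WT* and 3.87 to 13.4 CPM in *iRhom2-/-*, without overlap before rounding and with negative values for 6 of 6 genes. Myeloid markers had negative values for 6 of 6 genes too (median -0.30), with overlapping sums of 258 to 477 CPM in *WT* and 156 to 420 CPM in *iRhom2-/-*. The sums of the other marker lists overlapped, and their part in the result was not tested.

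Over all 24 libraries, with the set as a term, no member was called. Of the 20131 genes tested 247 (1.23%) passed an adjusted p of 0.05 in edgeR's quasi-likelihood test and 0 of these were members. DESeq2 and the likelihood ratio test called 0 members. The median log2 fold change was -0.0043 for the members and 0.0017 for all genes, with 5 members negative, beside 49.5% of the genes tested. At an unadjusted p below 0.05, 2 members were lower and 0 higher, where 5.88% of all genes were lower and 6.64% higher.

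These were *Taar7a* and *Taar6*. *Taar7a* had a log2 fold change of -0.60 (SE 0.18, 95% confidence interval -0.98 to -0.22, adjusted p = 0.127, edgeR). Without the 2 libraries that stood apart, an alternative added after seeing the data, it was -0.64 (adjusted p = 0.0792, edgeR). Across 26 alternative fits it stayed between -0.69 and -0.51, with adjusted p between 0.0556 (DESeq2) and 0.615. *Taar6* had a log2 fold change of -0.41 (SE 0.19, 95% confidence interval -0.80 to -0.02, adjusted p = 0.370, edgeR), and was below *WT* on average in each set. The intervals of the 8 other members included 0 and excluded log2 fold changes below -0.80 and above 1.10.

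**Figure D3:**
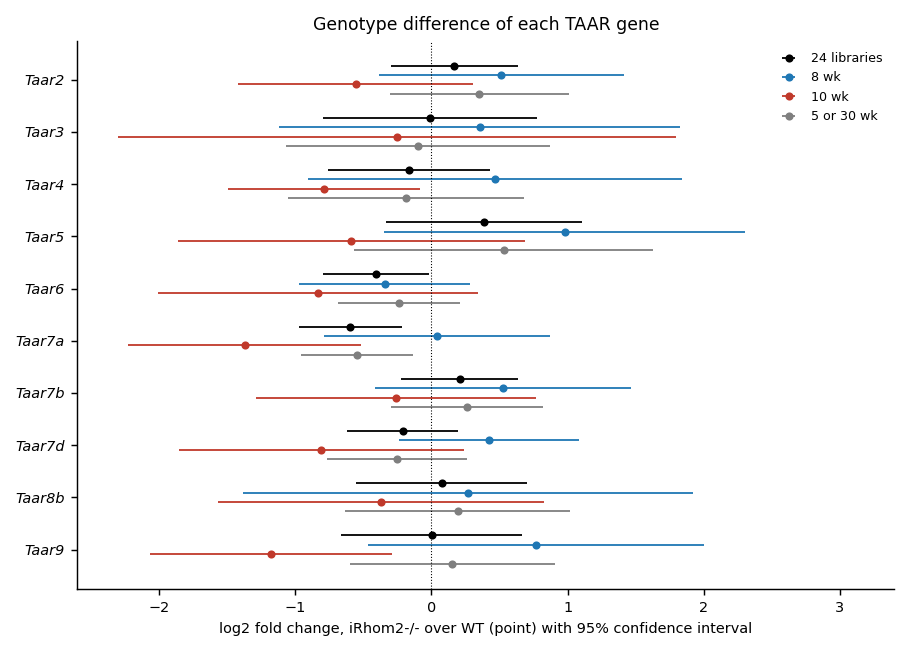
Log2 fold change of *iRhom2-/-* over *WT* (horizontal axis) for each TAAR gene, as points with 95% confidence intervals from edgeR. Black is the fit of all 24 libraries, blue 8 weeks, red 10 weeks and grey 5 or 30 weeks. The red points lie left of 0 for all 10 genes, and the blue points right of 0 for 9. The black interval excludes 0 for *Taar6* and *Taar7a*, and no adjusted p passed 0.05.

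Whether the difference between genotypes itself differed between sets was tested with an interaction term. No member passed an adjusted p of 0.05 in edgeR's quasi-likelihood test, and 3 of 20763 genes did (0.0144%). The smallest values among the members were those of *Taar7a* (adjusted p = 0.296, edgeR) and *Taar9* (adjusted p = 0.368, edgeR), where 12.7% of all genes had an unadjusted p below 0.05. With 8 and 10 weeks alone, 0 members passed, and *Taar9* (adjusted p = 0.324), *Taar7a* (adjusted p = 0.333) and *Taar7d* (adjusted p = 0.407) had an unadjusted p below 0.05 in edgeR, as did 12.0% of the genes tested. The opposite directions of the members at 8 and 10 weeks were therefore not shown to differ gene by gene.

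Summed over the 10 members, TAAR transcripts stood at 14.3 ± 3.1 CPM in *WT* and 13.5 ± 5.10 CPM in *iRhom2-/-* libraries (SD, n = 12). At 10 weeks the sum was 12.5, 18.1 and 17.7 CPM in *WT* and 11.0, 10.7 and 6.56 CPM in *iRhom2-/-* mice 1 to 3. All *iRhom2-/-* mice of this age were below all *WT* mice, and the ratio of the means was 0.587. At 8 weeks it was 10.7, 15.4 and 16.1 CPM in *WT* and 10.2, 23.4 and 21.1 CPM in *iRhom2-/-*, with overlap and a ratio of 1.30. In the libraries of 5 or 30 weeks the lowest, median and highest sums were 10.2, 12.8 and 19.2 CPM in *WT* and 9.05, 12.0 and 17.5 CPM in *iRhom2-/-*, nearly the same range. The sums are a description, without a test.

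As a share of all OR plus TAAR counts, which sets the TAARs against the other receptors of OSNs, the 10 genes made up 0.841 ± 0.113% in *WT* and 0.525 ± 0.0965% in *iRhom2-/-* mice at 10 weeks (SD, n = 3), again without overlap. At 8 weeks the shares were 0.867 ± 0.0841% and 0.904 ± 0.330% (n = 3), and at 5 or 30 weeks 0.881 ± 0.170% and 0.796 ± 0.171% (n = 6), with overlap in both sets. Without the *Taar7* and *Taar8* genes, whose reads are less certain, the log2 ratio of the summed CPM was -0.77 at 10 weeks, as it was with them, and 0.39 at 8 weeks. For all 10 members the log2 ratio at 10 weeks was -0.87 when *iRhom2-/-* mouse 2 of that age was left out. For all 10 members at 8 weeks, where the full set of mice gave 0.38, leaving out *iRhom2-/-* mouse 2 gave 0.16, leaving out *iRhom2-/-* mouse 1 gave 0.66 and leaving out *WT* mouse 1 gave 0.22.

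**Figure D4:**
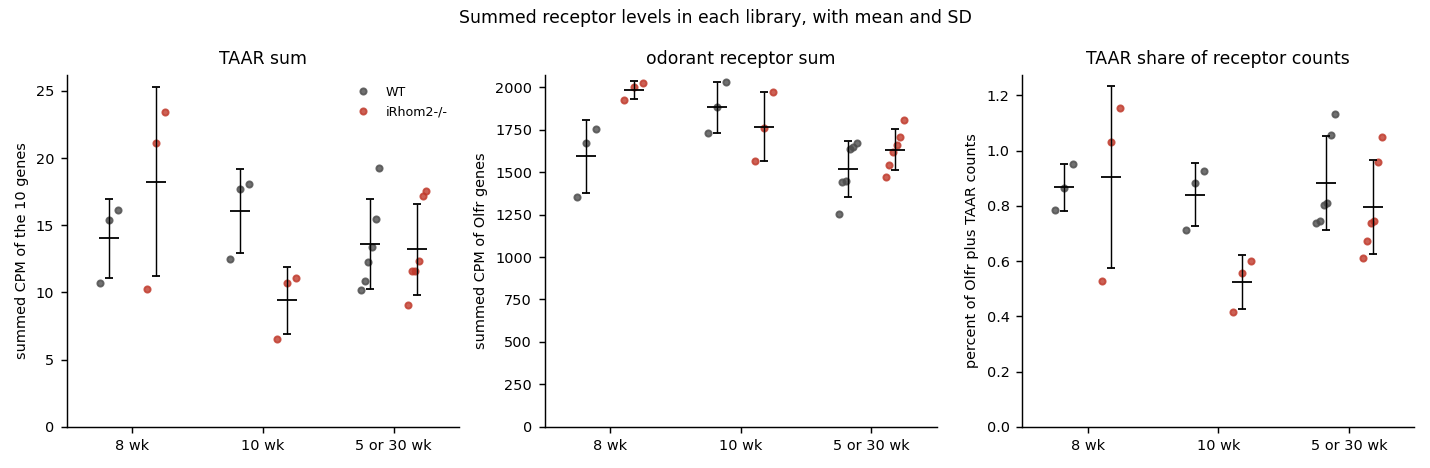
Summed CPM of the 10 TAAR genes (left), summed CPM of the OR genes (middle) and the TAAR share of OR plus TAAR counts in percent (right), by set. Points are libraries (grey *WT*, red *iRhom2-/-*), with the mean and SD in black. At 10 weeks the TAAR sum (9.43 against 16.1 CPM on average) and share are lower in all 3 *iRhom2-/-* mice, while the OR sums overlap. At 8 weeks the OR sums do not overlap.

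Other receptors and markers are given beside the TAAR sum. At 10 weeks the OR sum was 1882 ± 149 CPM in *WT* and 1767 ± 204 CPM in *iRhom2-/-* (SD, n = 3), with overlap. Class I ORs, another dorsal family, made up 9.08 ± 1.60% of OR counts in *WT* and 6.94 ± 0.722% in *iRhom2-/-* at this age, without overlap. The median log2 fold change of the 91 class I ORs tested was -0.48 and that of the 747 other ORs -0.33, beside -0.69 for the members.

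The marker lists of the OE at 10 weeks were as follows, as log2 fold changes and summed levels. Both markers of the dorsal OE had negative values, *Nqo1* at -0.68 (SE 0.16, adjusted p = 0.354, edgeR) and *Acsm4* at -0.29 (SE 0.16), and their summed level was 891 to 1237 CPM in *WT* and 840 to 940 CPM in *iRhom2-/-*. The ventral marker *Ncam2* was negative too, at -0.16 (SE 0.18), with 35.7 to 52.7 CPM in *WT* and 32.4 to 43.3 CPM in *iRhom2-/-*. Mature OSN markers had negative values for 7 of 8 genes (median -0.19), with sums of 13394 to 17219 CPM in *WT* and 12196 to 15587 CPM in *iRhom2-/-*. Basal cell markers had positive values for 6 of 6 genes, and their sums of 144 to 148 CPM in *WT* and 182 to 193 CPM in *iRhom2-/-* did not overlap. Respiratory ciliated cell markers had positive values for 5 of 5 genes, with sums of 168 to 274 CPM in *WT* and 209 to 420 CPM in *iRhom2-/-*. Sustentacular markers had negative values for 4 of 4 genes, with sums of 7370 to 7777 CPM in *WT* and 6169 to 6839 CPM in *iRhom2-/-* that did not overlap. Immature OSN markers had positive values for 6 of 6 genes (median 0.18), with sums of 957 to 1110 CPM in *WT* and 1097 to 1292 CPM in *iRhom2-/-*. Myeloid markers had positive values for 5 of 6 genes, with sums of 182 to 263 CPM in *WT* and 199 to 586 CPM in *iRhom2-/-*, and lymphoid markers for 4 of 6, at 7.11 to 11.2 and 5.25 to 17.8 CPM. No marker of these lists was at 0 in any library, and their part in the result was not tested.

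At 8 weeks, with the higher TAAR means in *iRhom2-/-*, the OR sum stood at 1983 ± 53.4 CPM against 1593 ± 214 CPM in *WT* (SD, n = 3), without overlap. Mature OSN markers summed to 9134 to 11399 CPM in *WT* and 13285 to 16878 CPM in *iRhom2-/-*, with positive log2 fold changes for 7 of 8 markers. The median log2 fold change was 0.62 for the 98 class I ORs tested, 0.30 for 814 other ORs and 0.49 for the mature OSN markers. Scaled to the OR total instead, which moved the median of all genes by -0.33, the median of the members at 8 weeks was 0.13 and 3 of 10 were negative. At 10 weeks the same scaling left all 10 negative, with a median of -0.60. The myeloid markers had negative values for 6 of 6 genes at 8 weeks, with sums of 255 to 517 CPM in *WT* and 137 to 242 CPM in *iRhom2-/-*, without overlap. Lymphoid markers had negative values for 6 of 6 genes as well (median -1.34), with sums of 10.9 to 42.0 CPM in *WT* and 5.63 to 10.3 CPM in *iRhom2-/-*, without overlap. The sums of the other marker lists overlapped at this age. Among these, the dorsal *Nqo1* was at 0.51 (SE 0.34) and *Acsm4* at 0.24 (SE 0.36), and the ventral *Ncam2* at 0.08 (SE 0.13). The dorsal markers summed to 463 to 838 CPM in *WT* and 447 to 1185 CPM in *iRhom2-/-*. The part of the marker lists in the result was not tested.

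Within the *Taar7* subfamily, *Taar7a* made up a smaller part in *iRhom2-/-* OE on average in each set. Of the counts of *Taar7a*, *Taar7b*, *Taar7d*, *Taar7e* and *Taar7f*, it held 23.7 ± 4.90% in *WT* and 17.7 ± 4.69% in *iRhom2-/-* libraries (SD, n = 12). The means were 19.3 and 16.6% at 8 weeks, 27.8 and 17.8% at 10 weeks and 23.8 and 18.2% at 5 or 30 weeks, and the groups overlapped in all 3 sets. *Taar7b*, by contrast, had a log2 fold change of 0.21 (SE 0.21) over all 24 libraries, *Taar7d* of -0.21 (SE 0.20), *Taar7e* of -0.14 (SE 0.20) and *Taar7f* of -0.10 (SE 0.20, edgeR). None of these 4 had an unadjusted p below 0.05. *Taar7a* is the subfamily member with the 21 bases of its own in the first 100 coding bases shown above. This share was computed after the lower values of *Taar7a* had been seen and is given without a test.

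**Figure D5:**
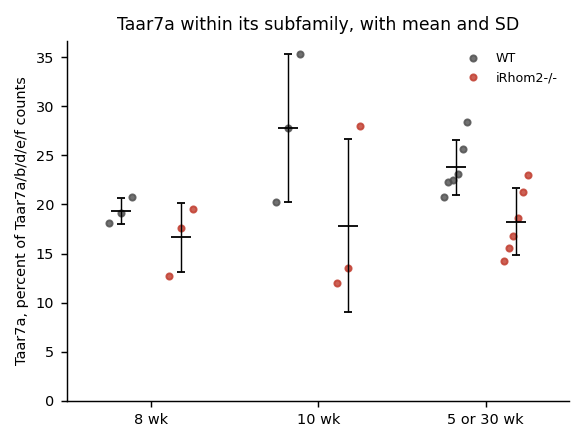
*Taar7a* counts as a percent of the counts of *Taar7a*, *Taar7b*, *Taar7d*, *Taar7e* and *Taar7f* (vertical axis) in each library, by set. Grey points are *WT* and red points *iRhom2-/-*, with the mean and SD in black. The *iRhom2-/-* means are lower in all 3 sets (16.6, 17.8 and 18.2% against 19.3, 27.8 and 23.8%), and the groups overlap in each.

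The other *Taar* genes of the cluster were low or near the members of intermediate level. *Taar7e* was at 1.34 ± 0.417 and *Taar7f* at 1.25 ± 0.355 CPM per kb in *WT* (SD, n = 12), near *Taar7b*, the lowest of the higher group. *Taar8a* (0.133 ± 0.113 CPM per kb) and *Taar8c* (0.0343 ± 0.0427 CPM per kb) were lower than every member, and *Taar1* and the pseudogene *Taar7c-ps* had no more than 3 counts in any library. At 10 weeks the means in *WT* and *iRhom2-/-* were 1.35 and 1.17 CPM for *Taar7e* and 1.56 and 0.988 CPM for *Taar7f*. They were 0.226 and 0.282 CPM for *Taar8a* and 0.0320 and 0.0447 CPM for *Taar8c*. These genes had few counts, 0 to 11 in *WT* and 4 to 13 in *iRhom2-/-* for *Taar8a* and 0 to 2 in each for *Taar8c*. The log2 fold change of *Taar8a* was 0.30 (SE 0.93, edgeR). Whether the lower means at this age extended to *Taar8a* and *Taar8c* therefore cannot be told. Outside the cluster, 0 of the 6 nearest protein-coding genes that are not *Taar* genes passed an adjusted p of 0.05 in any comparison in which they were tested by edgeR (*Vnn3* was not at 10 weeks). These are *Vnn1* and *Vnn3*, which encode pantetheinases, *Slc18b1*, a polyamine transporter, *Stx7*, a syntaxin of endosomes, *Moxd1*, a monooxygenase-like gene, and *Ccn2*, a matricellular growth factor. The smallest p among them was that of *Slc18b1* at 10 weeks, with a log2 fold change of -0.44 (SE 0.10, adjusted p = 0.305, edgeR).

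Genes through which TAAR neurons signal were described by a list of 16 genes for transduction and receptor trafficking. In bulk tissue their RNA comes from all OSNs, not from TAAR neurons alone. *Cnga2*, *Gng13*, *Stoml3*, *Adcy3*, *Gnal*, *Cnga4* and *Rtp1* are also on the list of mature OSN markers, so both lists largely give the same values. Over all 24 libraries 15 of the 16 had positive log2 fold changes (median 0.11) and 0 passed an adjusted p of 0.05 in edgeR, while 2 were higher and 1 lower at an unadjusted p below 0.05. Of all genes tested 6.64% were higher and 5.88% lower. At 8 weeks 14 were positive and 14 had an unadjusted p below 0.05, all higher, where 10.8% of all genes tested were higher and 9.02% lower. A single one, *Ric8b*, which assists the olfactory G protein, passed the adjusted threshold there, with a log2 fold change of 0.66 (SE 0.11, adjusted p = 0.0421, edgeR). *Cnga4*, a subunit of the transduction channel, was at 0.60 (SE 0.11, adjusted p = 0.0541, edgeR), and *Rtp1* and *Rtp2*, which carry receptors to the cell surface, were at 0.36 and 0.34. At 10 weeks 13 of 16 were negative (median -0.10) and 0 passed, with *Cnga4* at -0.30 (SE 0.12, adjusted p = 0.612, edgeR). In the libraries of 5 or 30 weeks 14 were positive (median 0.06) and 0 passed.

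Of 8 genes of receptor choice, 0 passed an adjusted p of 0.05 in any comparison in edgeR. Over all 24 libraries 6 had positive values (median 0.16), and 4 had an unadjusted p below 0.05, all higher, where 6.64% of all genes tested were higher and 5.88% lower. These were *Lhx2* (0.17), *Ldb1* (0.19) and *Ebf1* (0.15), which act at the enhancers of OR genes, and the homeobox gene *Emx2* (0.24). The median of the list was 0.18 at 8 weeks, 0.04 at 10 weeks and 0.13 at 5 or 30 weeks.

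Across libraries the TAAR sum varied most like single ORs of the same tissue. After the mean of each set was subtracted, Pearson correlations of log2 CPM with the summed TAAR level over 24 libraries were highest, outside the family, for *Olfr632* and *Olfr640* (0.87 each), which are class I ORs, and for *Olfr1162* (0.87), *Olfr1019* (0.86) and *Olfr24* (0.85). The median over all OR genes was 0.26, with a range from -0.71 to 0.87, and that over all genes was -0.01. The class I sum reached 0.78 and the sum of all ORs 0.62. Among marker and transduction genes the value was 0.74 for the dorsal *Acsm4* and 0.67 for the dorsal *Nqo1* and for *Rtp2*. It was 0.58 for *Gnal*, 0.57 for *Cnga2* and 0.52 for *Adcy3*, which encode parts of the cAMP cascade. The other genes of the transduction and trafficking list ranged from 0.12 for *Gng13* to 0.54 for *Cnga4*. The lowest after *Gng13* were *Pde4a* at 0.26 and *Rtp1* at 0.38. The correlation was 0.46 for the sum of mature OSN markers, 0.34 for *Omp*, 0.15 for the ventral *Ncam2* and -0.30 for the immature OSN marker *Gap43*. The libraries share their depth, dissection and OSN content across genes, so these values are a description. Only set means were subtracted, so differences between genotypes within a set also enter these correlations and those between members below.

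The members themselves varied together to different degrees. Against the sum of the 9 others, the correlation over 24 libraries was 0.90 for *Taar9*, 0.77 for *Taar2*, 0.74 for *Taar4*, 0.72 for *Taar7d*, 0.71 for *Taar3*, 0.70 for *Taar8b* and 0.61 for *Taar7b*. It was 0.38 for *Taar7a*, 0.37 for *Taar6* and 0.08 for *Taar5*. None of the 5 most similar ORs passed an adjusted p of 0.05 between genotypes in any comparison in edgeR. At 10 weeks their log2 fold changes were all negative, from -0.99 for *Olfr1162* to -0.58 for *Olfr1019*, and at 8 weeks all positive, from 0.12 for *Olfr24* to 0.73 for *Olfr632*. Since these genes were picked for their likeness to the TAAR sum in the same libraries, this is not independent of it.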

How the data were processed

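RNA of the main OE of 24 mice was sequenced after poly A selection. In the authors' nf-core pipeline, STAR placed reads on GRCm38 and RSEM estimated counts per gene. The deposited values are these estimated counts, already whole, with no scaling between libraries. How they were made whole is not given in the sources used here. The authors' fold change, p-value and FDR columns in the same table were not used. Of the 24 sample columns, 12 match the label of a single mouse (8 and 10 weeks) and 12 show genotype alone. No pair of libraries within a group was near enough to be a repeat (42 pairs, chi-square over its degrees of freedom 12.1 or more). Each total of counts sets the counting error, and p-values measure the spread between these mice.

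Genotypes were compared in edgeR 4.0.16 (R 4.3.3) by the quasi-likelihood test, over all libraries with the set as a term and in each set alone. Low genes were removed by filterByExpr, which all 10 members passed in every fit, and TMM factors scaled the libraries. P-values were adjusted by Benjamini and Hochberg's method across every gene in a fit, and 0.05 was the threshold. CPM includes the TMM factor. The fits were tested on simulated data. Class I ORs are *Olfr543* to *Olfr691*. Correlations used log2 CPM with a prior count of 2. Alternatives were DESeq2 1.42.0, the likelihood ratio test, other scalings and filters, other covariates, single mice left out and the replicate number as a block. Coordinates and sequences are from GENCODE M21. Genes named are the members, other *Taar* symbols, the 3 nearest protein-coding genes on each side, the 5 genes most like the TAAR sum, *Rhbdf2*, and lists of transduction, receptor choice and cell type markers. Members and lists were chosen with earlier results of these data known. *Bpifb9b*, and the transduction and choice genes singled out, were named after their values were seen.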

Additional observations from a re-analysis of the deposited data

Results flagged for a closer look

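In the groups of 6 libraries of 5 or 30 weeks, 26 groups of values were checked for a single library far from the others, and 3 were found, where chance alone gives about 1 in 20. *Taar3* stood at 0.933 CPM in 1 *WT* library, while the 5 others lay between 0.156 and 0.414 CPM. *Taar2* stood at 2.83 CPM in 1 *iRhom2-/-* library, with the others between 0.948 and 1.65 CPM. *Taar4* stood at 2.59 CPM in another *iRhom2-/-* library, with the others between 0.483 and 1.24 CPM. These sets hold 2 ages, and the age of a library is not shown by its column.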

How the results depend on the processing

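No alternative called a TAAR gene at an adjusted p of 0.05. Each moved the median and summed differences by less than the SD of the log2 sum within groups. This SD was 0.40 for all sets, 0.51 at 8 weeks, 0.37 at 10 weeks and 0.35 at 5 or 30 weeks. Except at 10 weeks it is larger than the differences themselves, so there it cannot show that they are stable. At 8 weeks the log2 ratio of the sums was 0.38 as CPM and 0.06 as a share of OR plus TAAR counts. Of 600 alternative values of single genes 41 changed sign, with p between 0.447 and 0.997. The lowest adjusted p was 0.0556 (*Taar7a*, all sets, DESeq2). Counts limit *Taar3*, *Taar5* and *Taar8b* most. The minimum of 10 counts in every library kept 7 members (9 at 8 weeks). DESeq2 called more genes overall than edgeR's 247, 270, 25 and 51 (all sets, 8, 10, and 5 or 30 weeks), namely 544, 1549, 199 and 549, and the likelihood ratio test called 719, 122 and 204 in the single sets.

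Over all sets *Taar9*, at 0.0004 in edgeR's main test, was at -0.0026 with DESeq2, -0.0028 with the likelihood ratio test, -0.023 with sex as a term, -0.16 with 8 and 10 weeks only, -0.12 scaled to the OR total, -0.075 with mature OSN markers as a covariate and -0.049 without the 2 libraries apart, an alternative added after seeing the data. *Taar3* was at 0.034 without the set term, 0.077 with 8 and 10 weeks only and 0.21 in males only, where *Taar4* was at 0.0014. *Taar2* was at -0.0069 and *Taar8b* at -0.043 with 8 and 10 weeks only, and *Taar8b* at -0.056 scaled to the OR total. At 8 weeks this scaling gave -0.26 for *Taar7a* and -0.071 for *Taar8b*. The cause was not tested.

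With single mice left out, values over all sets ran from -0.16 to 0.11 for *Taar3*, -0.11 to 0.18 for *Taar8b* and -0.14 to 0.13 for *Taar9*. At 8 weeks they ran from -0.20 to 0.80 for *Taar3*, -0.25 to 0.18 for *Taar7a* and -0.57 to 0.72 for *Taar8b*, and at 10 weeks from -0.98 to 0.26 for *Taar3*, -0.56 to 0.043 for *Taar7b* and -0.70 to 0.022 for *Taar8b*. The median of the members stayed between -0.93 and -0.54 at 10 weeks and between 0.21 and 0.76 at 8 weeks.

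Same-numbered *WT* and *iRhom2-/-* mice had correlations of 0.0032 to 0.13 at 8 weeks and 0.0085 to 0.24 at 10 weeks. Mice of different number had -0.15 to 0.12 at 8 weeks and -0.25 to 0.15 at 10 weeks. The ranges overlap, and with 3 mice per group they cannot decide whether the numbers pair the mice. A replicate block left 0 members called and gave medians of -0.17 (8 and 10 weeks together), 0.39 (8 weeks) and -0.70 (10 weeks). Under it *Taar2* was at -0.048, *Taar8b* at -0.20 and *Taar9* at -0.24 over 8 and 10 weeks, and *Taar8b* at -0.018 at 8 weeks. The replicate block changed the genes called overall from 35 to 11, from 270 to 452 and from 25 to 13. The libraries of 5 or 30 weeks carry no number.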
